A study of Mus musculus with 4 samples.

Results

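Chemokines and interleukins are small secreted proteins by which cells recruit and instruct leukocytes and one another. They were taken here as every gene of the count files whose symbol is a Ccl, Cxcl or Cx3cl chemokine or a numbered interleukin, together with Tslp, Csf1, Csf2, Csf3 and Lif, which gave 75 of 22609 genes. The rule used symbols and no measured value, but it was chosen with earlier results of these data known. Of the 75 members, 36 reached at least 20 reads in at least 1 library and were kept for analysis, 22 had between 1 and 18 reads at most, and 17 had no read in any library.

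Chemokines act through G protein-coupled receptors: CXC chemokines that carry a glutamate-leucine-arginine motif draw neutrophils through CXCR2, CC chemokines such as Ccl2 draw monocytes, and Cxcl12 and Cx3cl1 have other roles in cell positioning and adhesion. Interleukins fall into families that share receptor chains, such as the IL-1, IL-6 and IL-10 families. Epithelial cells make many of these factors, and in the mammary gland they are known from ductal growth, involution and inflammation, where macrophages and other leukocytes take part.

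RNA was sequenced from mammospheres, floating colonies grown for 7 days in medium with EGF, bFGF, heparin, insulin and hydrocortisone from FACS-sorted basal mammary cells of Balb/C mice killed at 4 months of age. The BPA+DMBA mice had been gavaged from day 21 for 3 weeks with 25 µg/kg/day of bisphenol A (BPA, an estrogenic compound used in plastics) and received 1 gavage of 30 mg/kg 7,12-dimethylbenz[a]anthracene (DMBA, a polycyclic carcinogen) at 2 months. The DMBA mice had sesame oil in place of BPA and then the same DMBA dose, the BPA mice had BPA alone, and the control mice had sesame oil alone. All groups ate a low-phytoestrogen diet after puberty, and the labels name no vehicle gavage in place of DMBA. Each group was 1 library made from pooled spheres of 5 animals, so no group has a replicate, and pooling hides the spread between animals. In such bulk samples, fewer cells of a type and less RNA per cell cannot be told apart.

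Reads assigned to genes came to 15672532 in BPA+DMBA, 26682738 in DMBA, 19672730 in BPA and 30627055 in control. A gene with no read can still stand at up to 3 reads, or 0.189, 0.108, 0.157 and 0.101 CPM (counts scaled to TMM library size) in the same order. The basal label was checked against its markers: all 8 basal markers were kept, and Krt5 had 7434, 15576, 2856 and 3510 reads in BPA+DMBA, DMBA, BPA and control. Krt14 rose with DMBA by a log2 change of 1.46 (SE 0.0983, edgeR adjusted p = 0.00241) and Trp63 by 0.97 (SE 0.146, adjusted p = 0.0118). All 10 luminal markers were kept as well, and the luminal keratin Krt8 had 10258, 17923, 13637 and 17647 reads, so the spheres also held luminal transcripts. In the same order the basal markers summed to 1594, 1820, 678 and 651 CPM and the luminal ones to 2924, 2889, 3494 and 3150. The 7 fibroblast markers summed to 8501, 5062, 6215 and 8354 CPM, so basal markers had the lowest of these sums in every library. Leukocyte RNA was scarce: 5 of 24 leukocyte markers were kept, and the pan-leukocyte marker Ptprc had 2, 2, 1 and 3 reads.

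Reads of all 75 members made up 0.134% of gene reads in BPA+DMBA, 0.132% in DMBA, 0.124% in BPA and 0.115% in control. In CPM per kilobase of transcript, the highest level belonged to Lif, a cytokine of the IL-6 family that signals through gp130, at 84.0 in BPA+DMBA, 81.1 in DMBA, 115 in BPA and 93.5 in control. Csf1, the growth factor of macrophages, followed in BPA+DMBA and stood at 72.2, 60.3, 52.7 and 53.8 on the same scale. Ccl2 stood at 64.9, 63.2, 39.9 and 28.2, Cxcl16, a membrane-bound CXCR6 ligand, at 52.4, 61.5, 61.9 and 53.4, and Cxcl14 at 49.1, 42.3, 39.3 and 51.1. Lif led in every library, and the order of Csf1, Ccl2, Cxcl16 and Cxcl14 below it differed between libraries. The order of neighbours rests on single libraries and on transcript lengths from a later annotation.

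**Figure D1:**
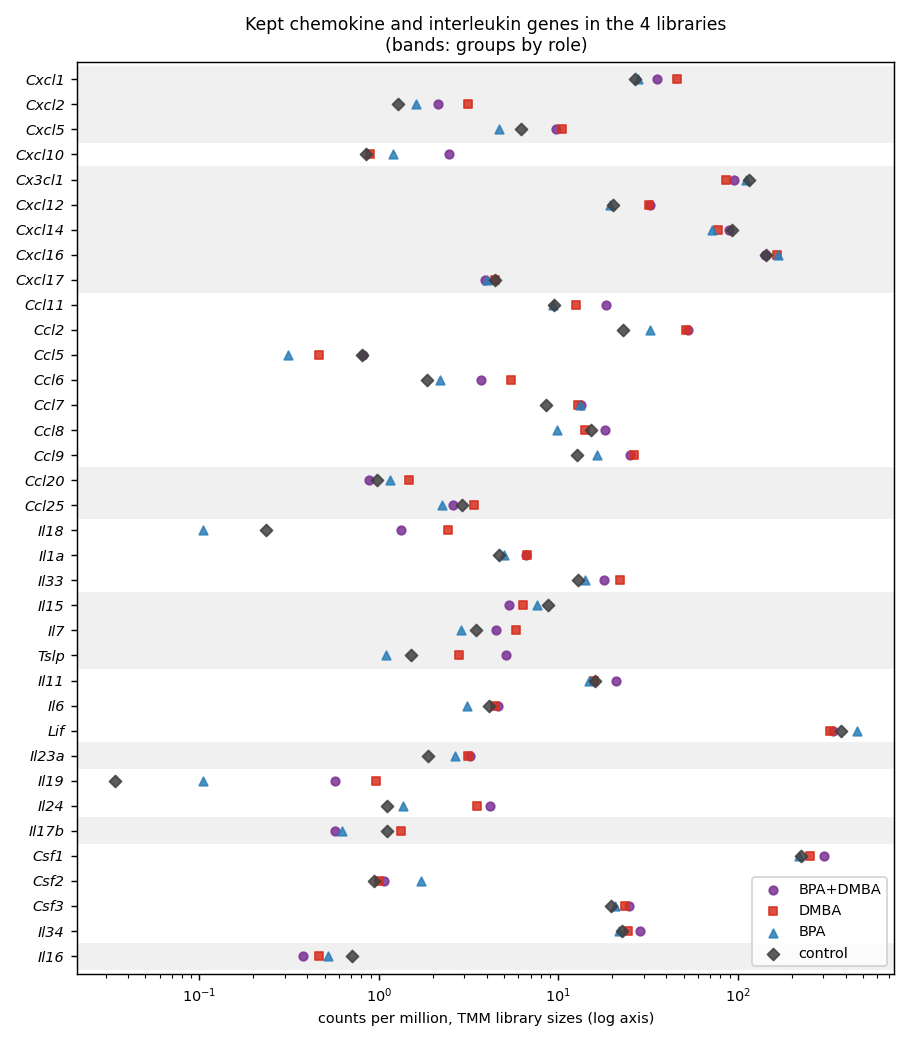
CPM (log axis) of the 36 kept chemokine and interleukin genes, grouped in bands by role, in the BPA+DMBA, DMBA, BPA and control libraries (1 point each). Il18, Il19 and Il24 sit higher in both DMBA-exposed libraries than in both unexposed ones, while Cxcl16 and Cxcl17 have overlapping points.

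The DMBA effect could be seen in BPA+DMBA against BPA and in DMBA against control, pairs made of different libraries, and was tested in an additive fit of BPA and DMBA over all 4 libraries by edgeR's quasi-likelihood test, adjusted over 13638 genes. In that fit 12 of the 36 kept members rose and 1 fell, where 6.67% of all genes tested rose and 7.72% fell (14.4% in either direction). The median log2 change of the kept members was 0.33, against -0.00 over all genes tested. Members that rose were Il19, Il18, Il24, Tslp, Ccl6, Ccl2, Cxcl5, Ccl9, Cxcl12, Ccl11, Il33 and Cxcl1, and the one that fell was Cx3cl1. Il18 and Il19 reached 20 reads only in DMBA-exposed libraries, and Ccl5 and Il16 only in the control library. The place of these genes among the 36 kept members therefore depends on the side where they were high. Because the interaction of BPA and DMBA is the only residual degree of freedom, it stands in for replicate error. Both DMBA-exposed libraries lay above both unexposed ones in 20 members and below in 4, 24 of 36 in all, where 31.7% and 31.6% of all genes tested did so (63.3% in either direction).

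The number of calls depended on how a length trend in the libraries was handled, while the median change of the members moved little. Across all kept genes the DMBA log2 ratio fell with transcript length, with a Spearman correlation of -0.344 in BPA+DMBA against BPA and -0.299 in DMBA against control, and the kept members were short, with a median of 1428.5 nt against 3156.5 nt for all kept genes. With that trend removed, 5 members still rose (Il18, Il24, Cxcl12, Ccl9 and Ccl2) and none fell, where 3.39% of all genes rose, and calls over all genes numbered 786, against 1962 before. The median log2 change of the members was then 0.31, against 0.33 before. Members whose call was lost kept their sign, with log2 values of 3.43 for Il19, 1.31 for Tslp, 1.07 for Ccl6, 0.78 for Cxcl5, 0.54 for Il33 and -0.32 for Cx3cl1. Among these lost calls Ccl11 went from 0.69 to 0.52 and Cxcl1 from 0.57 to 0.39. DESeq2 called the same 5 members, where it called 2.5% of all genes higher. Beside the short members, the basal markers moved too. Before removal of the trend 6 of 8 basal markers rose with DMBA and 0 fell, where 6.67% of all genes tested rose and 7.72% fell. Their part in the member values was not tested.

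**Figure D2:**
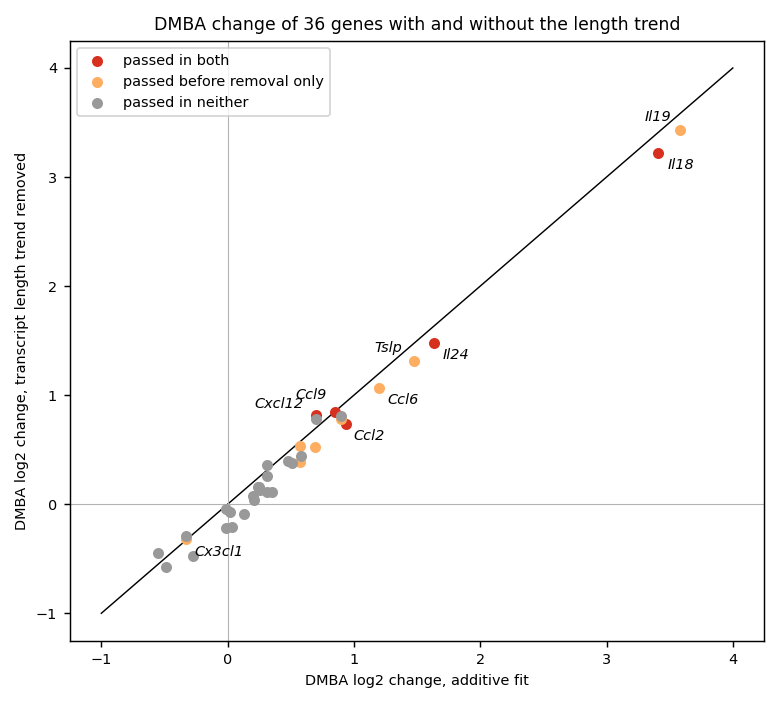
DMBA log2 change of the 36 kept members in the additive fit (x axis) and after removal of the transcript length trend (y axis), with the line of equality. Points coloured as passing in both are Il18, Il24, Cxcl12, Ccl9 and Ccl2. Most points lie slightly below the line, and Cxcl12, at 0.70 before and 0.82 after removal, lies above it.

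The largest rise among members of the IL-1 family, which are leaderless alarm cytokines, was that of Il18, whose product is matured by caspase-1. Il18 had 21 reads in BPA+DMBA and 68 in DMBA, against 2 in BPA and 7 in control, or 1.32, 2.44, 0.105 and 0.236 CPM. The DMBA-exposed libraries were both high and the unexposed ones both at 7 reads or fewer. Only the DMBA-exposed libraries reached the minimum count for being kept, so Il18 was tested through libraries where it was high. Against BPA, Il18 in BPA+DMBA was 12.7-fold higher (95% counting interval 3.09 to 111), and it was 10.3-fold higher in DMBA than in control (4.76 to 26.7), and the additive change was 3.41 on the log2 scale (SE 0.450, edgeR adjusted p = 0.00939). The BPA count of 2 sets the width of the first interval. Il18 kept its call in all 13 alternative analyses.

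Il33, an alarmin released by damaged epithelium and stroma, had 286 reads in BPA+DMBA and 612 in DMBA, against 271 in BPA and 380 in control. In CPM both exposed libraries were above both unexposed ones. It rose by 0.57 (SE 0.142, adjusted p = 0.0439), a call that was lost in 8 of 13 alternatives, with adjusted p from 0.00459 to 0.240 over the alternatives. Il1a had 6.61, 6.71, 4.96 and 4.65 CPM in the same order and did not pass (log2 0.47, SE 0.184, adjusted p = 0.137). Il1b, the other IL-1 agonist, had 13, 18, 11 and 15 reads and was not kept.

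Both kept members of the IL-10 family rose, Il19 and Il24, which signal through receptors that contain the IL-20 receptor chains and act on epithelial cells. Il24 had 4.16 CPM in BPA+DMBA and 3.52 in DMBA, against 1.36 in BPA and 1.11 in control, with no overlap between exposed and unexposed libraries. The BPA+DMBA to BPA ratio was 3.06 (1.92 to 5.02) and the DMBA to control ratio 3.16 (2.11 to 4.84), with an additive log2 change of 1.63 (SE 0.268, adjusted p = 0.0146). Its call was lost in 1 of 13 alternatives, when all libraries were thinned to the smallest total (adjusted p = 0.0617, the highest of a range from 3.15e-07).

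Il19 was rarer, at 9 reads in BPA+DMBA and 27 in DMBA, against 2 in BPA and 1 in control. Only the DMBA library reached the minimum count for being kept, so Il19 too was tested through a library where it was high. With so few reads the ratios were 5.42 in BPA+DMBA against BPA (1.12 to 51.6) and 28.7 in DMBA against control (4.74 to 1177). The additive log2 change was 3.58 (SE 0.752, adjusted p = 0.0290), and 3 of 10 alternatives that kept the gene lost it. Il20 had no read in any library, and Il10 had 2, 8, 0 and 3 reads.

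Tslp, an epithelial cytokine that acts on dendritic cells and type 2 lymphocytes, had 81 reads in BPA+DMBA and 78 in DMBA, against 21 in BPA and 45 in control. The BPA+DMBA library was highest at 5.10 CPM, followed by DMBA at 2.80 and control at 1.52, and the BPA library was lowest. The BPA+DMBA to BPA ratio was 4.65 (2.85 to 7.91) and the DMBA to control ratio 1.84 (1.26 to 2.73). The additive change was 1.48 (SE 0.367, adjusted p = 0.0444), a call lost in 7 of 13 alternatives, with adjusted p from 0.00100 to 0.118. Il7, a lymphocyte survival factor that shares a receptor chain with Tslp, had 4.47, 5.81, 2.87 and 3.47 CPM and did not pass (log2 0.70, SE 0.212, adjusted p = 0.0770). Il15, another lymphocyte factor, was lower in both exposed libraries at 5.29 and 6.35 CPM, against 7.63 in BPA and 8.73 in control, and did not pass (log2 -0.49, SE 0.169, adjusted p = 0.106).

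**Figure D3:**
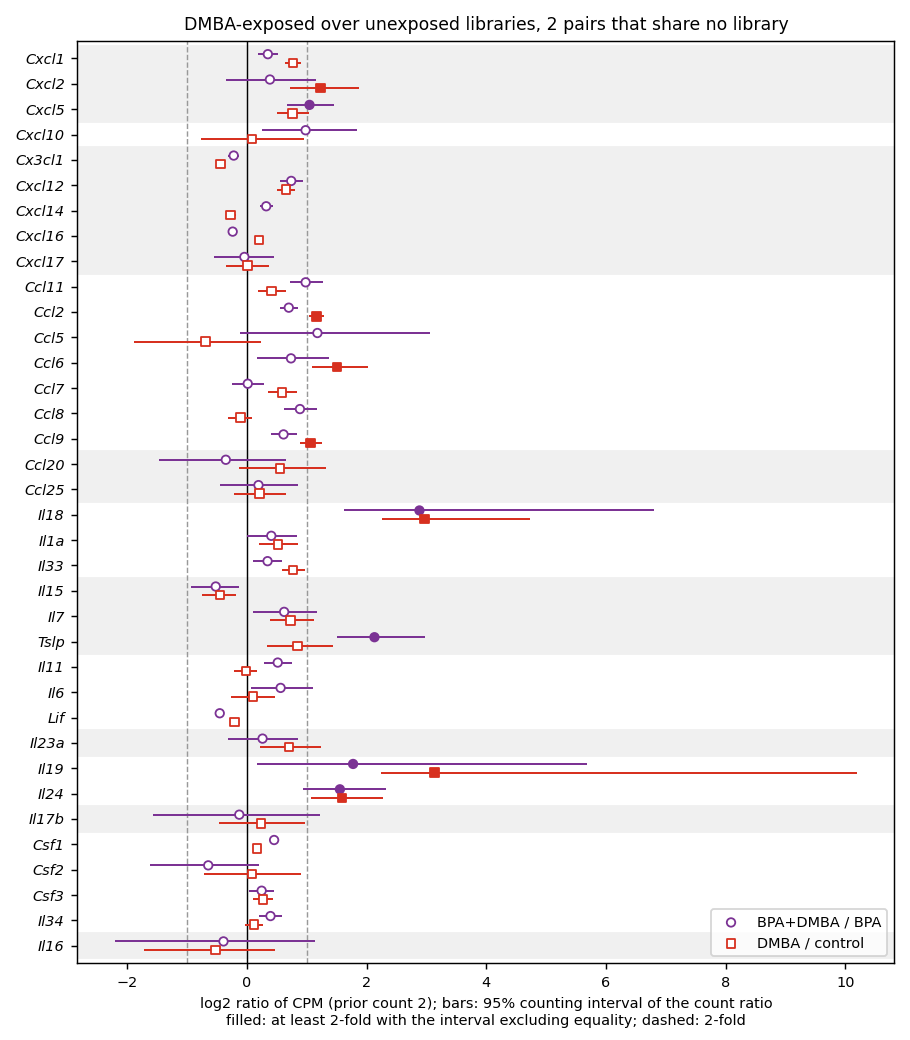
Log2 ratios of CPM for the 36 kept members in BPA+DMBA against BPA (circles) and DMBA against control (squares), with 95% counting intervals of the count ratio. Filled points differ at least 2-fold with an interval that excludes equality, and Il18, Il19 and Il24 are filled in both pairs.

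Among inflammatory CC chemokines, 4 of 7 kept members rose and 0 fell, where 6.67% of all genes tested rose and 7.72% fell. Ccl2, the main monocyte attractant acting through CCR2, had 838 reads in BPA+DMBA and 1432 in DMBA, against 621 in BPA and 681 in control. Its level was 52.8 CPM in BPA+DMBA and 51.4 in DMBA, against 32.4 in BPA and 23.0 in control. The DMBA-exposed libraries were alike, and the unexposed ones differed from each other. The BPA+DMBA to BPA ratio was 1.63 (1.46 to 1.81) and the DMBA to control ratio 2.24 (2.04 to 2.46), with an additive log2 change of 0.94 (SE 0.124, adjusted p = 0.00944) that passed in all 13 alternatives.

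Ccl9 and Ccl6 are related mouse CC chemokines that act through CCR1, and reads from the stretches they share may be lost in counting. Ccl9 had 25.1 CPM in BPA+DMBA and 26.5 in DMBA, against 16.4 in BPA and 12.6 in control, and rose by 0.85 (SE 0.139, adjusted p = 0.0145), a call kept in all 13 alternatives. Ccl6 had 3.71, 5.42, 2.19 and 1.85 CPM in the same order and rose by 1.20 (SE 0.280, adjusted p = 0.0385), a call lost in 6 of 13 (adjusted p 0.000695 to 0.186). Ccl11, the eosinophil attractant eotaxin, had 18.4, 12.6, 9.30 and 9.44 CPM and rose by 0.69 (SE 0.173, adjusted p = 0.0451), which was lost in 7 of 13 (adjusted p 0.00453 to 0.164). For Ccl11 the BPA+DMBA library led.

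The other kept inflammatory CC chemokines did not pass. Ccl7, a monocyte attractant, had 13.3 CPM in BPA+DMBA, 12.9 in DMBA, 13.2 in BPA and 8.53 in control, so only the control library was low (log2 0.31, SE 0.175, adjusted p = 0.275). Ccl8 had 18.1 CPM in BPA+DMBA and 14.1 in DMBA, against 9.77 in BPA and 15.2 in control, and here the BPA library was lowest (log2 0.35, SE 0.232, adjusted p = 0.347). The summed level of 7 fibroblast markers was also higher in BPA+DMBA and control, at 8501, 5062, 6215 and 8354 CPM in BPA+DMBA, DMBA, BPA and control, and its part in the Ccl8 values was not tested. Ccl5, a T cell and monocyte attractant, had 13, 13, 6 and 24 reads (log2 0.03, SE 0.606, adjusted p = 0.977).

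CXC chemokines with the glutamate-leucine-arginine motif rose in 2 of 3 kept members, where 6.67% of all genes tested rose. Cxcl5 had 154 reads in BPA+DMBA and 294 in DMBA, against 89 in BPA and 184 in control, or 9.70, 10.5, 4.65 and 6.20 CPM. The Cxcl5 ratio was 2.08 for BPA+DMBA over BPA (1.60 to 2.74) and 1.70 for DMBA over control (1.41 to 2.06), and the additive change was 0.90 (SE 0.173, adjusted p = 0.0234). Cxcl1 had 35.4, 45.7, 27.7 and 26.8 CPM and rose by 0.57 (SE 0.121, adjusted p = 0.0298). Each of these calls was lost in 4 of 13 alternatives, the removal of the length trend among them, where Cxcl5 had an adjusted p of 0.0629 and Cxcl1 of 0.144 (over all alternatives 0.000124 to 0.0909 for Cxcl5 and 0.000916 to 0.144 for Cxcl1). Cxcl2 had 34, 87, 31 and 38 reads and did not pass (log2 0.90, SE 0.330, adjusted p = 0.122), and Cxcl3 reached 10 reads at most.

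Of the CXC and CX3C chemokines with other roles, Cxcl12, which acts through CXCR4, rose and Cx3cl1 fell. Cxcl12 had 32.4 CPM in BPA+DMBA and 31.9 in DMBA, against 19.3 in BPA and 20.2 in control, so each pair of like-exposed libraries lay close together. Its additive log2 change was 0.70 (SE 0.0986, adjusted p = 0.0106) and passed in all 13 alternatives, and with the length trend removed it was 0.82 (SE 0.0932, adjusted p = 0.0252). Endothelial markers also rose with DMBA, 4 of 6 kept genes, where 6.67% of all genes tested rose. Their summed level was 76.1 CPM in BPA+DMBA, 75.7 in DMBA, 41.5 in BPA and 28.6 in control. Their part in the Cxcl12 values was not tested.

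Cx3cl1, the membrane-tethered chemokine fractalkine, had 1509 reads in BPA+DMBA and 2382 in DMBA, against 2119 in BPA and 3438 in control. In CPM per kilobase these were 28.7 and 25.8 in the exposed libraries, against 33.4 and 35.0 in the unexposed ones, with no overlap. The BPA+DMBA to BPA ratio was 0.858 (0.803 to 0.917) and the DMBA to control ratio 0.737, with an additive log2 change of -0.33 (SE 0.0803, adjusted p = 0.0415). That call was lost in 9 of 13 alternatives, with adjusted p from 0.00659 to 0.341 over the alternatives. Cxcl14, an epithelial chemokine, had 89.7, 77.3, 71.7 and 93.3 CPM, Cxcl16 had 142, 166, 167 and 144 CPM, and Cxcl17, a mucosal chemokine, had 3.90, 4.45, 4.02 and 4.42 CPM in BPA+DMBA, DMBA, BPA and control. None of these passed, and exposed and unexposed libraries overlapped in each.

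Several of these calls were lost when 1 library was left out, tested with DMBA as the only term over the remaining 3 libraries. Such a fit has a lone library on 1 side, so a lost call does not show that the missing library decided it. Without the BPA+DMBA library Ccl11 was lost (edgeR adjusted p = 0.0713). Without the DMBA library Ccl6 (0.0972), Cx3cl1 (0.0722), Cxcl1 (0.0523), Cxcl5 (0.0527) and Il33 (0.0903) had adjusted p-values above the threshold of 0.05. Without the BPA library the same held for Ccl11 (0.101), Cx3cl1 (0.0636), Cxcl5 (0.0607) and Tslp (0.0833), and without the control library for Ccl11 (0.106), Ccl6 (0.0924), Cx3cl1 (0.122), Cxcl1 (0.0700), Il19 (0.0764), Il33 (0.110) and Tslp (0.0527). Il18, Il24, Ccl2, Ccl9 and Cxcl12 passed without any 1 of the libraries.

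The IL-6 family, the colony-stimulating factors and the remaining kept interleukins held no member that passed for DMBA. Lif, the member with the highest level, had 5369 reads in BPA+DMBA and 9096 in DMBA, against 8864 in BPA and 11171 in control (log2 -0.33, SE 0.0945, adjusted p = 0.0655). Il11, which acts on epithelium and stroma, had 21.1, 15.9, 14.7 and 16.1 CPM, with the BPA+DMBA library apart from the other 3. Il6 had 73, 123, 59 and 122 reads (log2 0.31, SE 0.231, adjusted p = 0.404).

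Csf1 had 301, 252, 220 and 224 CPM in BPA+DMBA, DMBA, BPA and control (log2 0.31, SE 0.0936, adjusted p = 0.0759), and Il34, the other ligand of the Csf1 receptor, had 28.5, 24.6, 21.7 and 22.7 CPM (log2 0.25, SE 0.113, adjusted p = 0.191). Csf3, the granulocyte factor, had 24.6, 23.5, 20.7 and 19.6 CPM (log2 0.26, SE 0.102, adjusted p = 0.145). Each of these stood slightly higher in both exposed libraries without passing the test. Csf2 had 17 to 33 reads per library, Il23a 51 to 87, Il17b 9 to 37, Il16 6 to 21, Ccl20 14 to 41 and Ccl25 41 to 94.

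Promoter sequences are shown for 4 risen members: Cxcl1, Ccl9 and Il19, whose windows hold a match to the NF-kB consensus, the binding motif of a factor known to drive many chemokine genes, and Il18, the member with the lowest adjusted p, whose window has no match. Each runs 5′ to 3′ over 250 bases before and 50 after the RefSeq start of the gene (build GRCm38.p6, not the mm9 of the count files), with matches to the NF-kB consensus or to the AP-1 motif TGANTCA, sought on both strands, in capitals. In Ccl9 the AP-1 match is TGAATCA and the NF-kB match GGAAAGCCCC; in Cxcl1 overlapping matches on the 2 strands give 1 run of capitals.
Cxcl1, chr5:90890995-90891294, + strand: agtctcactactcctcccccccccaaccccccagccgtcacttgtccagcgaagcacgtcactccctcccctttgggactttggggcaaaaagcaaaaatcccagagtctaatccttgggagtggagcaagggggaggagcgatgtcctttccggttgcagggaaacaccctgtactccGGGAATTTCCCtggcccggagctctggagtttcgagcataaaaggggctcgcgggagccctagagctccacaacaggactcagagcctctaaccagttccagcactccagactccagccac
Ccl9, chr11:83578587-83578886, - strand: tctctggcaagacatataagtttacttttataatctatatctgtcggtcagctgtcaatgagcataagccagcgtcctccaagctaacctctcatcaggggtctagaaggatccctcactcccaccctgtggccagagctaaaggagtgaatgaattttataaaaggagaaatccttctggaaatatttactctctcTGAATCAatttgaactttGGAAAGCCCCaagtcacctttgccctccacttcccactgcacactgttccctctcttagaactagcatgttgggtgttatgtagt
Il19, chr1:130940066-130940365, - strand: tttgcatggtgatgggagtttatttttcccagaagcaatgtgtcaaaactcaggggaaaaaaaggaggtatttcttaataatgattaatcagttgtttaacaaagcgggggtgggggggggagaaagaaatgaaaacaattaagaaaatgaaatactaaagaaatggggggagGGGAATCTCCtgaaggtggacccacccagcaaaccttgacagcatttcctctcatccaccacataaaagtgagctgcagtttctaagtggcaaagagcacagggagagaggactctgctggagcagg
Il18, chr9:50554450-50554749, + strand: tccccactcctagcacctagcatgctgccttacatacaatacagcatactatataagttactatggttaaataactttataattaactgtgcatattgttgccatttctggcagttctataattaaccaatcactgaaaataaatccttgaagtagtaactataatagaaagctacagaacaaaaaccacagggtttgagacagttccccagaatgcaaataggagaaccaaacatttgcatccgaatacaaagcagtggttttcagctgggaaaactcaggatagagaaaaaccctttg

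Of the 13 members that passed for DMBA, 8 had a promoter entry (all but Ccl2, Ccl11, Cxcl5, Il24 and Tslp), and 3 of these held the NF-kB consensus and 1 the AP-1 motif. Among the 23 kept members that did not pass, 13 had an entry, of which 7 held the NF-kB consensus and 6 the AP-1 motif. Over all 32851 RefSeq promoter windows of the same length, 8.46% held the NF-kB consensus and 7.81% the AP-1 motif. The NF-kB share among called members was thus not above that among the other kept ones, and no difference was tested.

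Genes that act with the members were read in the same fit. Among chemokine receptors 2 of 9 kept genes rose and 0 fell, where 6.67% of all genes tested rose and 7.72% fell. Cxcr4, the receptor of Cxcl12, had 133 reads in BPA+DMBA and 236 in DMBA, against 70 in BPA and 110 in control, and rose by 1.19 (SE 0.182, adjusted p = 0.0124). Darc, a non-signalling chemokine receptor of endothelium and red cells, had 18, 29, 3 and 5 reads and rose by 2.68 (SE 0.512, adjusted p = 0.0226). Darc reached 20 reads only in the DMBA library, so it was among the 9 kept through a library where it was high. Cxcr6, which did not pass, reached 20 reads only in the control library. Cxcr2, the receptor of Cxcl1 and Cxcl5, had 2, 1, 2 and 1 reads, and Cx3cr1, the receptor of Cx3cl1, had 1, 5, 0 and 2 reads.

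Among interleukin and colony-stimulating factor receptors 5 of 32 kept genes rose and 1 fell, where 6.67% of all genes tested rose and 7.72% fell. Il20ra, a receptor chain for Il19 and Il24, had 31 reads in BPA+DMBA and 80 in DMBA, against 17 in BPA and 24 in control, and rose by 1.53 (SE 0.342, adjusted p = 0.0338). Il1rl1, the receptor of Il33, rose by 0.89 (SE 0.0724, adjusted p = 0.00339), Il1r1, the IL-1 receptor, by 0.62 (SE 0.135, adjusted p = 0.0320) and Lifr, the receptor of Lif, by 0.55 (SE 0.112, adjusted p = 0.0266). Genes singled out after their values were seen were Il17rc, the remaining one that rose (log2 0.36, SE 0.0878, adjusted p = 0.0437), Il28ra, the one that fell (log2 -0.44, SE 0.0726, adjusted p = 0.0145), and Il18r1, a receptor chain of Il18, which did not pass (log2 -0.50, SE 0.152, adjusted p = 0.0788). Other kept receptors of risen ligands, also named after their values were seen, did not pass either: Ccr2 for Ccl2 stood at -0.08 (SE 0.454, adjusted p = 0.920), Ccr1 for Ccl9 and Ccl6 at 0.58 (SE 0.192, adjusted p = 0.0961), and Crlf2 for Tslp at 0.15 (SE 0.104, adjusted p = 0.372). Il20rb, the partner chain of Il20ra, stood at 0.23 (SE 0.268, adjusted p = 0.608), Il18rap, the second chain for Il18, at -0.65 (SE 0.196, adjusted p = 0.0759), and Cxcr7 for Cxcl12 at -0.53 (SE 0.140, adjusted p = 0.0546). Il1rap, the partner chain of Il1rl1 for Il33, stood at -0.09 (SE 0.0681, adjusted p = 0.432).

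Il1rn, the natural antagonist of IL-1, was the 1 of 4 kept antagonists and decoys that rose (log2 0.61, SE 0.128, adjusted p = 0.0291), and 0 fell. Of 9 neighbouring cytokines outside the rule, such as Tnf, none passed, the largest values being 0.62 for Il1f9 (SE 0.403, adjusted p = 0.345) and -0.40 for Lta (SE 0.414, adjusted p = 0.552). Of 21 NF-kB pathway genes 1 rose, the kinase gene Ikbke (log2 0.61, SE 0.112, adjusted p = 0.0207), and 1 fell, the feedback inhibitor Tnfaip3 (log2 -0.51, SE 0.0745, adjusted p = 0.0111). Beside these list counts, 6.67% of all genes tested rose and 7.72% fell. The medians of these lists for DMBA were -0.08 for chemokine receptors, 0.00 for interleukin receptors, 0.11 for antagonists, -0.11 for neighbouring cytokines and 0.03 for NF-kB genes, against -0.00 over all genes tested.

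Leukocyte markers gave no common direction: of the 5 kept, 1 rose and 2 fell with DMBA, with a median log2 change of -0.86. Of all genes tested 6.67% rose and 7.72% fell. The summed level of the 24 markers was 207 CPM in BPA+DMBA and 174 in DMBA, against 306 in BPA and 356 in control, and Cd14, which mammary epithelium also expresses, made up 78.7%, 79.3%, 82.3% and 82.2% of it. Cd14 fell by 0.86 on the log2 scale (SE 0.116, adjusted p = 0.00977), Cd53 fell by 1.48 (SE 0.279, adjusted p = 0.0219), and Cd68 stood at -0.04 (SE 0.115, adjusted p = 0.865). Lyz2 and C1qa, macrophage genes named after their values were seen, had 44, 31, 7 and 8 reads and 9, 6, 3 and 0 reads in BPA+DMBA, DMBA, BPA and control, and Lyz2 rose by 2.48 (SE 0.436, adjusted p = 0.0180). Ptprc stayed at 3 reads or fewer and Cd3g had none. Whether a few macrophages contributed to the member values was not tested.

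For BPA the pairs were BPA+DMBA against DMBA and BPA against control. In the additive fit edgeR's quasi-likelihood test called 0 of 36 kept members, and 0% of all genes tested. DESeq2 and edgeR's likelihood ratio test also called 0 members, and 1 and 6 genes in all. At an unadjusted p under 0.05 there were 2 members, Cxcl10 and Il17b, with a smallest adjusted p of 0.999, and 304 of all genes (2.23%). The median BPA log2 change of the kept members was -0.05, against 0.00 over all genes, and both pairs had the same sign for 16 of 36 members (44.4%) and for 47.4% of all genes.

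Cxcl10, an interferon-induced ligand of CXCR3, had 39 reads in BPA+DMBA and 25 in DMBA, and 23 in BPA and 25 in control. Its level was 2.46 CPM in BPA+DMBA against 0.897 in DMBA, and 1.20 in BPA against 0.843 in control, so the combined library stood alone. The BPA+DMBA to DMBA ratio was 2.74 (1.62 to 4.72), and the ratio of BPA to control was 1.43 (0.773 to 2.62). The other CXCR3 ligands, Cxcl9 and Cxcl11, had 3 to 7 and 2 to 9 reads.

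Il17b, a member of the IL-17 family, had 9 reads in BPA+DMBA and 37 in DMBA, and 12 in BPA and 33 in control. Both BPA-exposed libraries were lower than both unexposed ones, with ratios of 0.427 in BPA+DMBA against DMBA (0.181 to 0.901) and 0.564 in BPA against control (0.265 to 1.12). The additive change was -1.01 for Il17b and 1.01 for Cxcl10 on the log2 scale (SE 0.400 and 0.381, both with edgeR adjusted p = 0.999).

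In single pairs, BPA+DMBA against DMBA had 2 members at least 2-fold apart with an interval excluding equality, Cxcl10 higher and Il17b lower, where 1.09% of all genes were apart (0.425% higher and 0.66% lower). BPA against control had 1, Ccl5, lower at 6 reads against 24 (0.388-fold, 0.130 to 0.973), where 0.829% of all genes were apart (0.271% higher and 0.557% lower). The higher members were Cxcl5, Il18, Il19, Il24 and Tslp in the first DMBA pair and Ccl2, Ccl6, Ccl9, Cxcl2, Il18, Il19 and Il24 in the second. In counts, DMBA exposure gave 5 members higher and 0 lower in BPA+DMBA against BPA, where 2.77% of all genes were higher and 0.968% lower (3.74% in all), and 7 higher and 0 lower in DMBA against control, where 4.24% were higher and 2.31% lower (6.55% in all). These single pairs compare libraries and carry no test of the conditions.

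**Figure D4:**
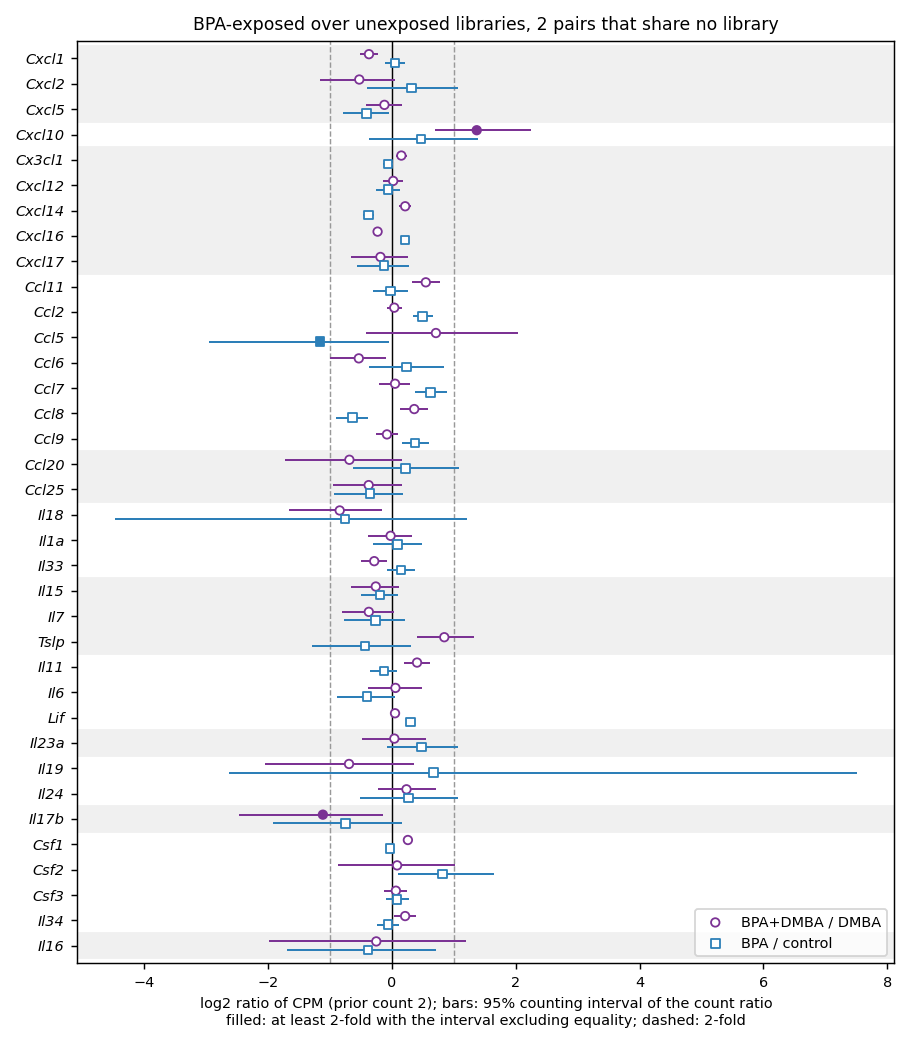
Log2 ratios of CPM for the 36 kept members in BPA+DMBA against DMBA (circles) and BPA against control (squares), with 95% counting intervals of the count ratio. The filled points, at least 2-fold apart with an interval excluding equality, are Cxcl10 and Il17b in the first pair and Ccl5 in the second.

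Several members differed in how the BPA ratio stood with and without DMBA. The difference of the 2 BPA log2 ratios had a counting interval that left out 0 in 17 of 36 kept members and in 32.5% of all genes, which covers counting error and not the spread between animals. Ccl8 had a BPA ratio of 1.29 with DMBA and 0.641 without (0.538 to 0.762), a difference of 1.00 on the log2 scale (0.67 to 1.33). Ccl2 and Ccl7 went the other way: Ccl2 had a BPA ratio of 1.03 with DMBA (0.942 to 1.12) and 1.41 without (1.27 to 1.58), and Ccl7 one of 1.04 with (0.870 to 1.23) and 1.55 without (1.30 to 1.85). Lif had a BPA ratio of 1.04 with DMBA (1.00 to 1.07) and 1.23 without (1.20 to 1.26). Of the 17, 9 had a higher BPA ratio with DMBA and 8 a lower one. Cxcl14 (0.59), Ccl11 (0.57) and Il11 (0.53) were among the first, and Ccl6 (-0.77), Ccl9 (-0.45) and Cxcl16 (-0.44) among the second, given as differences of log2 ratios. The interaction leaves no degree of freedom for a test.

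Members below the count minimum are given by their reads. Those without a read in any library were Ccl19, Ccl21a, Ccl21b, Ccl24, Ccl26, Ccl27a, Ccl27b, Ccl28, Ccl4, Il13, Il17a, Il20, Il21, Il22, Il25, Il28a and Il28b. Ccl19, Ccl21a, Ccl21b, Ccl27a, Ccl27b, Il28a and Il28b have near-identical copies in the mouse genome whose reads can be lost as not uniquely aligned, so a count of 0 says little for them. Ccl3, a macrophage chemokine, had 4, 4, 0 and 0 reads in BPA+DMBA, DMBA, BPA and control. Apart from Il1b, the members below the minimum reached 10 reads at most. Among them Cxcl15 had 4, 8, 1 and 2 reads, Ccl17 had 1, 1, 2 and 3, and Il9 had 2, 3, 2 and 10.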

How the data were processed

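For each of 4 libraries the authors deposited raw counts of reads by gene symbol, over 22609 genes and 5 summary entries that name no gene. Per the submitters' processing notes, CASAVA 1.8.2, HTSeq and DESeq were used with the mouse build mm9; their roles, and which aligner and strandedness applied, were not stated in what was used here. Per the labels' protocols, RNA came from miRNeasy columns and libraries from the Illumina TruSeq protocol. Reads not uniquely aligned were 25.3%, 25.6%, 23.3% and 22.9% of deposited counts in BPA+DMBA, DMBA, BPA and control, reads outside genes 11.3%, 11.9%, 13.0% and 13.5%, and reads on overlapping genes 0.449%, 0.443%, 0.441% and 0.435%; these were left out of library sizes. No library repeated another (chi-square per degree of freedom 12.3 to 74.4).

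The members and gene lists were chosen with earlier results of these data known. A gene was kept where any library held 20 counts or more (13638 genes), and counts were scaled by TMM in edgeR 4.0.16 (R 4.3.3; DESeq2 1.42.0). BPA and DMBA were fitted additively by the quasi-likelihood test (Benjamini-Hochberg over all kept genes, threshold 0.05), which leaves 1 residual degree of freedom. Each SE given with that test was derived from it, as the absolute log2 change divided by the square root of its F value. Single pairs were given as ratios of CPM (log2 values with a prior count of 2) with exact 95% Clopper-Pearson intervals of the count ratio. Intervals and floors (3 counts) cover counting error only, and reads without molecular identifiers are not independent molecules. Alternatives were other scalings, count minimums, tests, a single-term model, each library left out, thinning, and removal of the length trend. Transcript lengths, the longest coding transcript in GENCODE vM21 (GRCm38), matched 13510 kept genes and all 36 kept members. Every kept member could be named, and of each pathway list the up to 4 called genes with the largest change. The scripts were tested on simulated data, where the share of false calls of the quasi-likelihood test was above its nominal level and that of the single-pair rule higher still. Promoters are from RefSeq (GRCm38.p6).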

Additional observations from a re-analysis of the deposited data

Results flagged for a closer look

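Ccl5 differed in its BPA ratio with and without DMBA by a log2 value of 1.87 (95% counting interval 0.22 to 3.53), with 13 reads in BPA+DMBA and 13 in DMBA, and 6 in BPA and 24 in control. Tslp differed by 1.28 (0.42 to 2.15), with 81 reads in BPA+DMBA and 78 in DMBA, and 21 in BPA and 45 in control. Both stand out because the 2 BPA ratios lay on opposite sides of equality and differed by at least 2-fold, with an interval leaving out 0. In each, 1 of the 2 ratios had an interval that included equality. It was 1.75 for Ccl5 with DMBA (0.749 to 4.11) and 0.723 for Tslp without DMBA (0.409 to 1.24). Of all genes, 32.5% had a difference whose interval left out 0. The difference was not tested across samples, since each group is 1 library.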

How the results depend on the processing

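For DMBA, 13 members were called. The count was 8 with RLE size factors, 8 with at least 50 counts, 8 after thinning to the smallest total, 5 with DESeq2 and 5 with the length trend removed. With 1 library left out and DMBA as the only term it ranged from 7 (without control) to 14, with 8 without DMBA; a lone library is then assumed to vary like the others. Of the 75 kept pathway genes 11 were called, where 14.4% of all genes tested were called in either direction. The pathway count was 4 with DESeq2, 17 with the likelihood ratio test, 5 after thinning and 5 with the length trend removed. For BPA the count was 0 in every alternative, libraries left out included. All genes called for DMBA numbered 1962 of 13638 (1509 with RLE, 1320 with total counts, 675 with DESeq2, 2509 with the likelihood ratio test, 786 with the length trend removed). They numbered 1650 of 12565 with at least 50 counts and 1021 of 13109 when thinned. Total counts alone moved the split to 889 higher and 431 lower, against 909 and 1053, and shifted the median ratio of all genes in DMBA against control from -0.01 to 0.10.

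In single pairs, a 1.5-fold threshold gave 13 members for BPA+DMBA over BPA (10.4% of all genes apart), 15 for DMBA over control (15.1%), 4 for BPA+DMBA over DMBA (4.11%) and 4 for BPA over control (2.82%). With at least 50 counts both BPA pairs had 0 (0.533% of all genes for BPA+DMBA over DMBA and 0.406% for BPA over control). Thinning gave 4 for DMBA over control (6.03%) and 1 for BPA+DMBA over DMBA (0.931%), and removing the length trend gave 3 for BPA+DMBA over BPA (3.58%). Thinned, the 1 member apart in BPA over control was Cxcl10, higher, in place of Ccl5. Under 4 alternatives chosen after seeing the data, departures from additivity stood at 17 of 36 members with RLE (32.9% of all genes), 17 with total counts (34.9%), 16 with the length trend removed (32.0%) and 13 of 32 when thinned (29.2%).

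DMBA log2 values that changed sign all belonged to members that had not passed. With the length trend removed Ccl5 had -0.21, Cxcl14 -0.074 and Il17b -0.089. With total counts alone Cxcl16 had 0.071 and Cxcl17 0.073, and thinned Cxcl17 had 0.16. With 1 library left out the lowest and highest values were -0.25 and 0.49 for Ccl20, -0.017 and 0.43 for Ccl25, -0.41 and 0.44 for Ccl5, -0.015 and 0.62 for Ccl7, -0.74 and 0.13 for Csf2, -0.14 and 1.30 for Cxcl10, -0.16 and 0.22 for Cxcl14, -0.13 and 0.11 for Cxcl16, -0.12 and 0.077 for Cxcl17, and -0.67 and 0.69 for Il17b. The causes were not tested. No paired analysis was possible because each group holds 1 library. Depth limits the rarer members: the 22 with fewer than 20 reads were not tested, and ratios of Il18 and Il19 rest on as few as 2 and 1 reads.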

Other observations

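Members that lie next to each other on a chromosome did not all share a call. Neighbours were taken as members with at most 2 other protein-coding genes between them in the RefSeq table of GRCm38.p6, which placed 72 of 75 members. In the cluster of 6 members from Ccl2 to Ccl1 on chromosome 11, 4 were kept and 2 rose with DMBA, Ccl2 and Ccl11, while Ccl7 and Ccl8 between and beside them did not pass. In the cluster of 5 from Ccl5 to Ccl4 on the same chromosome 3 were kept and 2 rose, Ccl9 and Ccl6. In the cluster of 5 from Cxcl5 to Cxcl2 on chromosome 5, 3 were kept and 2 rose, Cxcl5 and Cxcl1. In the cluster of 4 from Il24 to Il10 on chromosome 1, 2 were kept and both rose, Il24 and Il19. The clusters from Csf2 to Il3, Cxcl14 to Il9, Il1a to Il1b and Cxcl9 to Cxcl10 each had 1 kept member and no call. In the cluster from Ccl22 to Ccl17 the 1 kept member, Cx3cl1, fell. The remaining clusters had no kept member. Of all genes tested 6.67% rose and 7.72% fell, and whether calls gather on chromosomes was not tested.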
